A study of Sus scrofa with 5 samples.

Results

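PPARG, CEBPA, CEBPB and CEBPD, the transcription factors that drive the making of fat cells, were described on 5 arrays of pig backfat, the fat under the skin of the back. The members were taken as every probe set that the platform annotation gives to exactly 1 of these symbols, which selected 7 probe sets of 4 genes among 6765 genes with a probe set of their own. PPARG and CEBPB had 1 probe set each, CEBPA 2 and CEBPD 3, so no member went unmeasured. The pigs were female backcross animals, from F1 boars of Iberian and Landrace parents and Landrace sows, of similar age, kept on one cereal-based diet and sampled at slaughter. Each animal was hybridised to 1 Affymetrix porcine array. The H group (BC4, BC5 and BC6) and the L group (BC2 and BC3) came from the ends of a principal component of carcass traits and of fatty acid composition in muscle, where H animals carried more polyunsaturated and L animals more saturated and monounsaturated fatty acids. The animals were not treated, the groups were chosen on these carcass and muscle traits, and BC1 of the L group was not analysed here. In whole tissue, fewer cells of a type and less RNA per cell cannot be told apart.

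As background, fat cells arise from fibroblast-like precursors through a relay of transcription factors. C/EBPβ and C/EBPδ, encoded by CEBPB and CEBPD, are induced first, by hormones such as glucocorticoids and by signals that raise cyclic AMP. They switch on PPARG, a nuclear receptor that works as a pair with a retinoid X receptor, and CEBPA. In mature fat cells PPARγ and C/EBPα keep each other and the genes of lipid storage active, while C/EBPβ and C/EBPδ also serve in inflammation and in macrophages. C/EBP proteins bind DNA as dimers through a basic leucine zipper.

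All values are on the log2 scale, as the authors normalized them, and run from a floor of 2.17, at which 23.2% of the 23999 probe sets tested lay on all 5 arrays, to 16.1. The array medians lay between 4.21 and 4.29. Of the adipocyte markers listed, 7 of 11 had a probe set and none was at the floor on all arrays. SLC2A4, however, was above it on only 1 array, by 0.0023, and gave no usable level. FABP4, the fatty acid carrier of fat cells, was at 15.40, 15.49 and 15.36 on BC4, BC5 and BC6 of the H group and at 15.39 and 15.37 on BC2 and BC3 of the L group. The log2 of the summed level of the adipocyte markers was 15.73 to 15.82 in H and 15.72 to 15.79 in L. This sum rests mostly on FABP4 and does not show that the other markers were even. Over the 5 animals the range was 0.13 for FABP4 and 0.28 for LIPE. It was 1.05 for CFD, 1.08 for GPD1, 3.11 for ADIPOQ and 6.07 for LEP. Since the submitters' extraction note names liver, hepatocyte markers were set beside them. ALB, the serum albumin gene, lay between 2.58 and 4.69, and SERPINA1 and AMBP were at the floor on all arrays, while APOA1, an apolipoprotein, was at 11.29 to 12.57. Skeletal muscle markers (7 of 10 measured) were unevenly spread, with a summed level of 5.68, 9.27 and 5.29 on BC4, BC5 and BC6 of H and 5.45 and 7.32 on BC2 and BC3 of L.

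None of the members passed the test between the groups. For all 6 member probe sets above the floor H averaged less than L, by 0.05 to 0.68 on the log2 scale, with a median difference of -0.18. As 3 of the 6 read CEBPD, they are not separate observations. The direction for PPARG and for the 3 CEBPD probe sets turned in some fits without 1 animal. Over the 12727 probe sets whose 5 values all differ (called distinct values here), the median was 0.02, and 46.8% averaged less in H than in L. In each of the 6 probe sets the H and L animals overlapped, so 0 of 6 stood apart, against 20.9% of the probe sets with distinct values. A probe set passed where limma gave p of at most 0.01 and adjusted p of at most 0.1 and the groups differed at least 1.2-fold. None of the 23999 probe sets did so (0.0%). An unadjusted p under 0.05 was found for 762 (3.18%), lower in H for 1.58% and higher in H for 1.6%, and for 0 of 6 members.

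**Figure D1:**
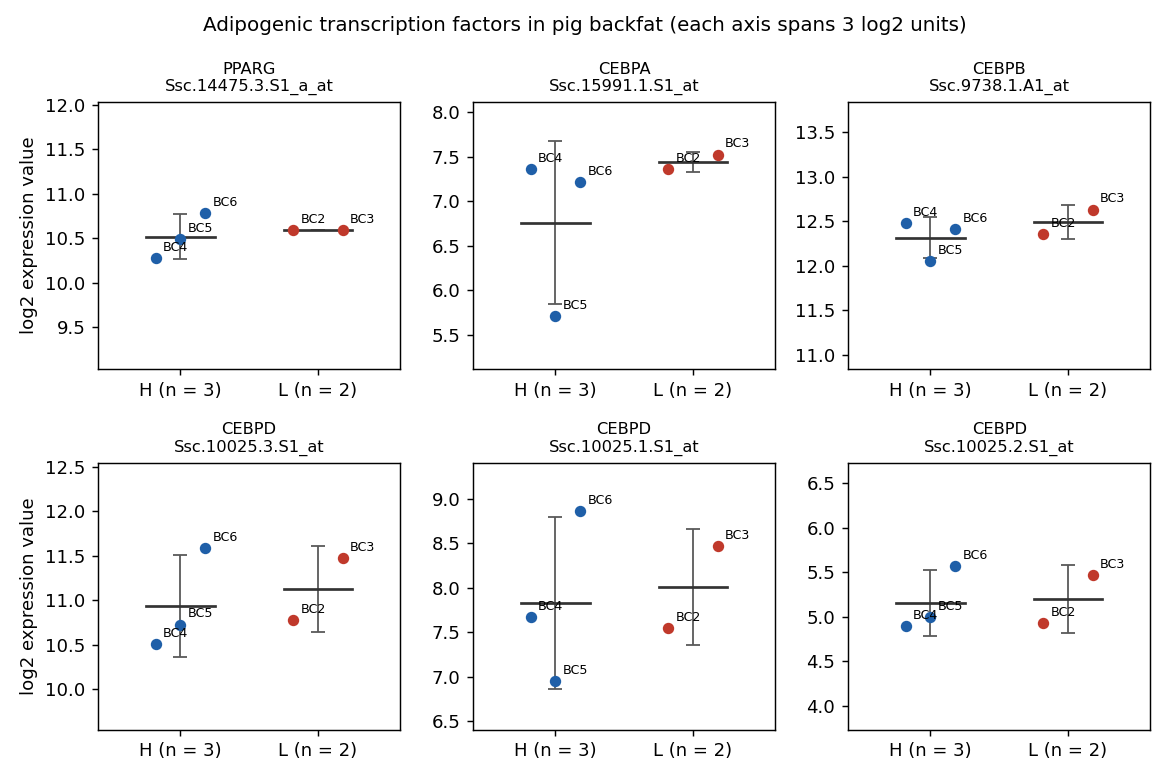
Log2 value of each member probe set above the floor, 1 point per animal, with the H group (blue, n = 3) left of the L group (red, n = 2), a line at each group mean and bars of 1 SD (CEBPD bright, middle and dim from left to right). Each axis spans 3 log2 units, and the spread among the 3 H animals exceeds the difference between the group means in all 6 panels.

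CEBPB, among the first factors of the relay, had log2 values of 12.48, 12.05 and 12.41 on BC4, BC5 and BC6 of the H group, against 12.36 and 12.63 on BC2 and BC3 of the L group. Its highest animal was BC3 and its lowest BC5, and L animal BC2 lay below both BC4 and BC6. It had 12.31 ± 0.229 in the 3 H animals (mean ± SD), against 12.49 ± 0.194 in the 2 L animals. The difference was -0.18 (standard error, SE, 0.188, 95% interval -0.75 to 0.38, adjusted p = 1 by limma). The probe set ranked between 302 and 434 from the top on the 5 arrays, within the brightest 1.26% to 1.81% of probe sets. The rank tells where the probe set stands on its array, and probe sets differ in their response, so it is no measure of the amount of CEBPB transcript beside that of another gene.

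CEBPD, its partner in the first wave and a gene strongly induced by glucocorticoids and inflammatory signals, was read by 3 probe sets, called bright, middle and dim here, that shared their 2 highest animals. The bright one was at 10.51, 10.73 and 11.59 on BC4, BC5 and BC6 of H, against 10.78 and 11.47 on BC2 and BC3 of L. BC6 of H and BC3 of L stood above the other animals, 1 from each group, and this held for all 3 probe sets. It had 10.94 ± 0.572 in the 3 H animals (mean ± SD), against 11.13 ± 0.488 in the 2 L animals. H minus L was -0.19 (SE 0.471, 95% interval -1.60 to 1.23, adjusted p = 1 by limma).

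The middle CEBPD probe set gave 7.67, 6.95 and 8.87 on BC4, BC5 and BC6 of H and 7.55 and 8.47 on BC2 and BC3 of L. Its range over the 5 animals, 1.92, was wider than that of 94.5% of the 17132 probe sets above the floor on all arrays. The dim one was also flatter, at 4.89, 5.00 and 5.57 in H and 4.93 and 5.47 in L. Their differences were -0.18 (95% interval -2.45 to 2.09) and -0.05 (95% interval -1.01 to 0.92), both at adjusted p = 1 by limma. The direction of all 3 turned without L replicate 3, to 0.16, 0.28 and 0.22 for the bright, middle and dim ones, where the 1 L array left has no spread of its own. The direction also turned without H replicate 4 for the bright (0.03) and the dim one (0.08), and without H replicate 5 for the middle (0.26) and the dim one (0.03).

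PPARG had the narrowest range of the members over the 5 animals, though CEBPB varied less among the 3 H animals (SD 0.229, against 0.255 for PPARG). Its probe set was at 10.28, 10.50 and 10.79 on BC4, BC5 and BC6 of H, against 10.60 and 10.60 on BC2 and BC3 of L. The L animals differed by 0.00155 and lay within the range of the H animals. The means were 10.52 ± 0.255 in the 3 H animals (mean ± SD), against 10.60 ± 0.00109 in the 2 L animals. The difference of -0.08 (SE 0.179, 95% interval -0.61 to 0.46, adjusted p = 1 by limma) turned to 0.05 without H replicate 4 and was -0.21 without H replicate 6. Its range of 0.51 over all animals was wider than that of 43.7% of the probe sets above the floor on all arrays, and the probe set lay within the brightest 5.11% to 7.11% on each array. PPARG encodes the protein forms PPARγ1 and PPARγ2, which a single probe set does not tell apart.

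CEBPA, the partner of PPARG in mature fat cells, was set apart by 1 animal. Its informative probe set was at 7.36, 5.71 and 7.21 on BC4, BC5 and BC6 of H, against 7.36 and 7.53 on BC2 and BC3 of L. BC5 lay far below the other 4, whose values spanned 0.31, and the ranges of the groups met at BC4 and BC2. CEBPA had 6.76 ± 0.914 in the 3 H animals (mean ± SD), against 7.44 ± 0.118 in the 2 L animals, and the difference was -0.68 (SE 0.647, 95% interval -2.62 to 1.26, adjusted p = 1 by limma). Without H replicate 5 (BC5) the difference was -0.15, and with array weights it was -0.44. On BC5 the probe set stood at 42.3% from the top of the array, and on the other arrays at 27.6% to 30.4%. The other CEBPA probe set was at the floor on all 5 arrays and gave no level.

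**Figure D2:**
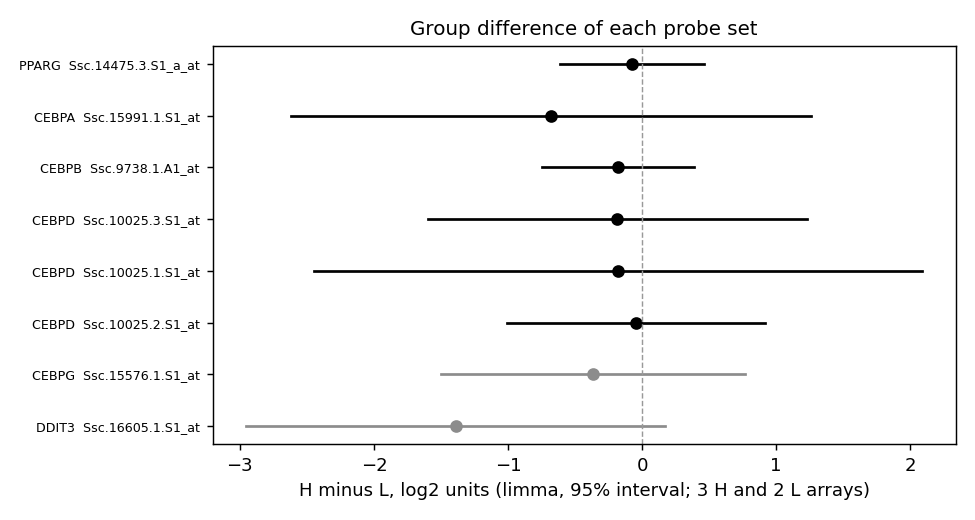
Difference of H minus L in log2 units for each probe set above the floor, with the 95% interval by limma over 3 H and 2 L arrays (black for PPARG, CEBPA, CEBPB and CEBPD, grey for the other C/EBP genes). The intervals of PPARG and CEBPB stay within 1 log2 unit, those of CEBPA and CEBPD reach beyond it, and all 8 hold 0.

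For PPARG and CEBPB the 95% interval of the difference stayed within 1 log2 unit, a 2-fold change, in both directions. For CEBPA and the CEBPD probe sets it went beyond 1 log2 unit in at least 1 direction, so a 2-fold difference between the groups is not excluded for either gene.

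The animals at the extremes differed between the members. BC5 was the lowest of the 5 for CEBPA, CEBPB and the middle CEBPD probe set, that is 3 of 6 members, where BC5 was lowest for 26.3% of all probe sets with distinct values. BC3 lay above BC2 for 5 of 6, the exception being PPARG, where this held for 53.4% of those probe sets. BC6 was the highest H animal for 4 of 6, which are PPARG and the 3 probe sets of CEBPD, where this held for 32.6%. As 3 of the 6 probe sets read 1 gene, these counts describe the arrays and were not tested.

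BC5 also stood apart in other genes of these lists. LEP, which encodes the fat cell hormone leptin, was at 8.27, 4.41 and 10.48 on BC4, BC5 and BC6 of H and at 9.33 and 8.43 on BC2 and BC3 of L. ADIPOQ, the gene of adiponectin, was at 12.20, 9.09 and 10.92 in H and at 11.82 and 10.52 in L. Both were lowest on BC5, as was CEBPA. Of the 6 adipocyte markers with distinct values, BC5 was lowest for 3 (ADIPOQ, LEP and GPD1) and highest for 2 (FABP4 and LIPE). TNNC2, a troponin of fast skeletal muscle, was at 3.52, 7.32 and 2.62 in H and at 3.05 and 5.69 in L. Of the 7 measured skeletal muscle markers, 4 had distinct values and all 4 were highest on BC5, and none of the 7 was at the floor on all arrays. The part of muscle RNA in the low CEBPA value of BC5 was not tested. LEP and ADIPOQ were named after their values were seen.

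**Figure D3:**
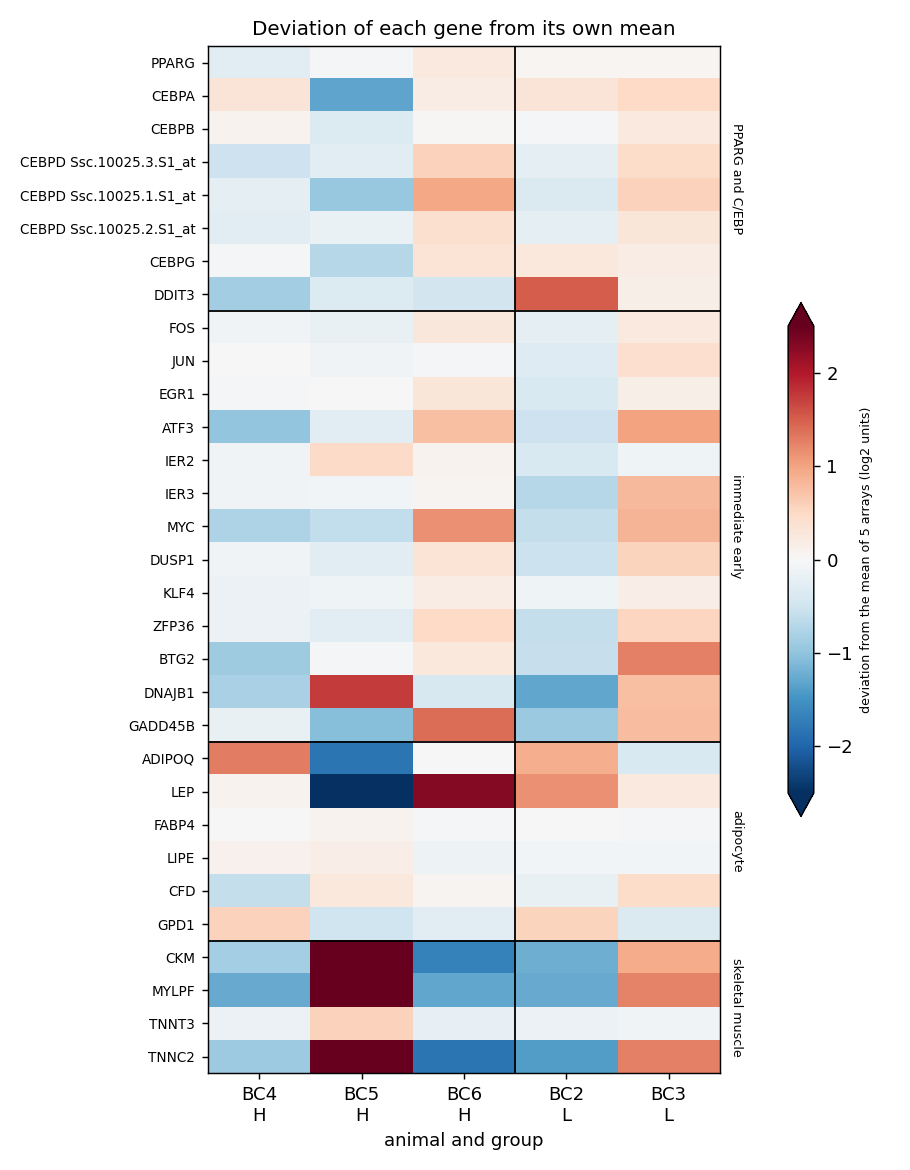
Deviation of each gene from its own mean over 5 arrays in log2 units (blue lower, red higher; colours saturate at 2.5), with the 3 H animals left of the 2 L animals, for the PPARG and C/EBP probe sets and for listed genes with distinct values on the arrays. CEBPA is lowest on BC5, where 3 of the 6 adipocyte genes are lowest and 2 highest and all 4 skeletal muscle genes are highest, and the CEBPD probe sets are highest on BC6 and BC3.

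The genes whose pattern over the 5 animals was most like each member were found by the root mean square difference of the log2 values after each probe set was centred on its own mean. For the bright CEBPD probe set these were GPX7, a peroxidase of the endoplasmic reticulum, LOX, the lysyl oxidase that crosslinks collagen, and PPP1R12A, a subunit of myosin phosphatase. Their differences from CEBPD were 0.0653, 0.0829 and 0.0845, where the spread of CEBPD about its own mean was 0.432 by the same measure. LOX, for example, was at 8.02, 8.25 and 9.19 on BC4, BC5 and BC6 of H and at 8.22 and 9.16 on BC2 and BC3 of L, high in the same 2 animals as CEBPD.

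For CEBPA they were CD247, a chain of the T cell receptor complex, MARCH3, a ubiquitin ligase, and HIST1H2BD, a histone, at 0.0876 to 0.112, against a spread of 0.669 for CEBPA itself. All 3 were lowest on BC5, with CD247 at 5.84 there and at 7.25 to 7.43 elsewhere. For CEBPB they were MESDC2, PRPS1 and VPS41, at 0.0294 to 0.0371 against a spread of 0.191, and for PPARG RAB11B, ZC3H7A and HEBP2, at 0.0467 to 0.0515 against 0.165. RAB11B, a small GTPase, lay at 2.89 to 3.32, not far above the floor. Among 7902 probe sets of other genes, many match a pattern over 5 animals by this measure, and it is given as a description without a test. The dim CEBPD probe set was 0.155 and the middle one 0.373 from the bright one, and PPARG was 0.308, CEBPB 0.388 and CEBPA 0.670 from it. In the order of likeness to the bright CEBPD probe set, PPARG was 409 of 7900 and CEBPA 6854, and in that to CEBPA, CEBPB was 615 of 7902.

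The rest of the C/EBP family was represented by CEBPG and DDIT3, and CEBPE had no probe set of its own. DDIT3, the stress-induced member also known as CHOP, which pairs with other C/EBP proteins and hinders their binding, was at 6.19, 6.73 and 6.61 on BC4, BC5 and BC6 of H, against 8.58 and 7.22 on BC2 and BC3 of L. All 3 H animals lay below both L animals, as was so for 9.38% of the probe sets with distinct values. The means were 6.51 ± 0.283 in the 3 H animals (mean ± SD), against 7.90 ± 0.964 in the 2 L animals. H minus L, -1.39 (SE 0.520, 95% interval -2.95 to 0.17, adjusted p = 1 by limma), did not pass, and leaving out L replicate 2 or L replicate 3 gave -0.71 or -2.07. CEBPG, which encodes a short C/EBP protein and follows CEBPA as the next protein-coding gene in RefSeq's pig annotation (Sscrofa11.1), was at 7.68, 7.02 and 8.07 in H and 8.0 and 7.92 in L. It was lowest on BC5, as was CEBPA. Its difference was -0.37 (SE 0.377, adjusted p = 1 by limma), and -0.08 without H replicate 5.

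Of 20 listed partners and coregulators of PPARG, 10 were measured and none passed in either direction. RXRA, which encodes the usual partner of PPARγ, and PPARGC1A, a coactivator best known from brown fat, were at the floor on all arrays. The same held for a CEBPA probe set beside an informative one, so a floor value does not show that a transcript is absent. NCOR1, a corepressor, was at 10.40, 10.38 and 10.30 on BC4, BC5 and BC6 of H and at 10.49 and 10.64 on BC2 and BC3 of L, a difference of -0.20 (SE 0.063). NCOA2, a coactivator, was at 9.56, 9.64 and 9.45 in H and at 9.32 and 9.36 in L, a difference of 0.21 (SE 0.0711). NCOA1, a related coactivator, differed by -0.24 (SE 0.146). By limma all 3 had adjusted p = 1, with groups that did not overlap, as had 20.9% of the probe sets with distinct values. They were named for the smallest p of their list, which favours groups without overlap. Of the 6 genes of this list with distinct values, 2 stood lower and 1 higher in H without overlap. Of the 6 probe sets of NCOA1, 1 had the opposite direction (0.13). The median difference of the 8 genes above the floor was -0.02. It took in MED1 and PPARA, which lay near the floor.

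Other transcription factors that favour the making of fat cells had 14 of 23 genes measured, and none passed in either direction. NR1H3, the liver X receptor alpha, had groups that did not overlap, at 8.77, 8.92 and 8.76 on BC4, BC5 and BC6 of H and 8.50 and 8.33 on BC2 and BC3 of L. MEF2D, a factor better known from muscle, differed by 0.38 (SE 0.128), also with no overlap. KLF15, which in mouse cells promotes fat cell differentiation, was at 7.92, 7.83 and 8.15 in H and at 8.56 and 8.23 in L, a difference of -0.43 (SE 0.165). For each, limma gave adjusted p = 1, with groups that did not overlap, as had 20.9% of the probe sets with distinct values. They were named for the smallest p of their list, which favours groups without overlap. Of the 11 genes of this list with distinct values, 1 stood lower and 2 higher in H without overlap. The median difference of the 14 genes was 0.0020. It took in CREB1, constant on all arrays, and SREBF1, near the floor. NR3C1, the glucocorticoid receptor, lay between 5.74 and 6.08 on all arrays, and KLF9, a glucocorticoid-responsive factor, at 13.14, 12.56 and 13.44 in H and 12.89 and 13.08 in L. These last 2 were named after their values were seen.

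Of 28 listed factors and signals that oppose fat cell formation, 18 were measured, 2 of them (WNT10B and SOX9) at the floor on all arrays, and none passed in either direction. TGFB1, the transforming growth factor, was at 5.57, 6.40 and 6.60 on BC4, BC5 and BC6 of H and at 4.66 and 5.57 on BC2 and BC3 of L, a difference of 1.07 (SE 0.5, adjusted p = 1 by limma). Its other probe set gave 0.14. HES1, a target of Notch signalling, differed by 0.39 (SE 0.242) and TWIST2, a repressor of mesenchymal cells, by -0.52 (SE 0.354). The median difference of the 16 genes above the floor was 0.03. It took in KLF2, constant on all arrays, and ID2, near the floor.

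Among 32 listed genes of fat cells with known control by PPARG or CEBPA, 23 were measured and none passed in either direction. Of the 19 with distinct values, 12 had a mean of H below that of L, and the median difference of the 23 was -0.03. The 23 took in genes near the floor or constant on all arrays, such as SLC2A4, INSR and RETN. The middle gene of the 19 by H minus L was AGPAT2, at -0.16. LPL, the lipoprotein lipase, was at 13.52, 12.84 and 13.65 on BC4, BC5 and BC6 of H and 14.01 and 13.58 on BC2 and BC3 of L. For LIPE, the hormone-sensitive lipase, H minus L was 0.12 (SE 0.106), and for PLIN2, a coat protein of lipid droplets, -0.66 (SE 0.608), at adjusted p = 1 by limma. BC5 was the lowest of the 5 animals for 7 of the 19, where this held for 26.3% of all probe sets with distinct values.

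**Figure D4:**
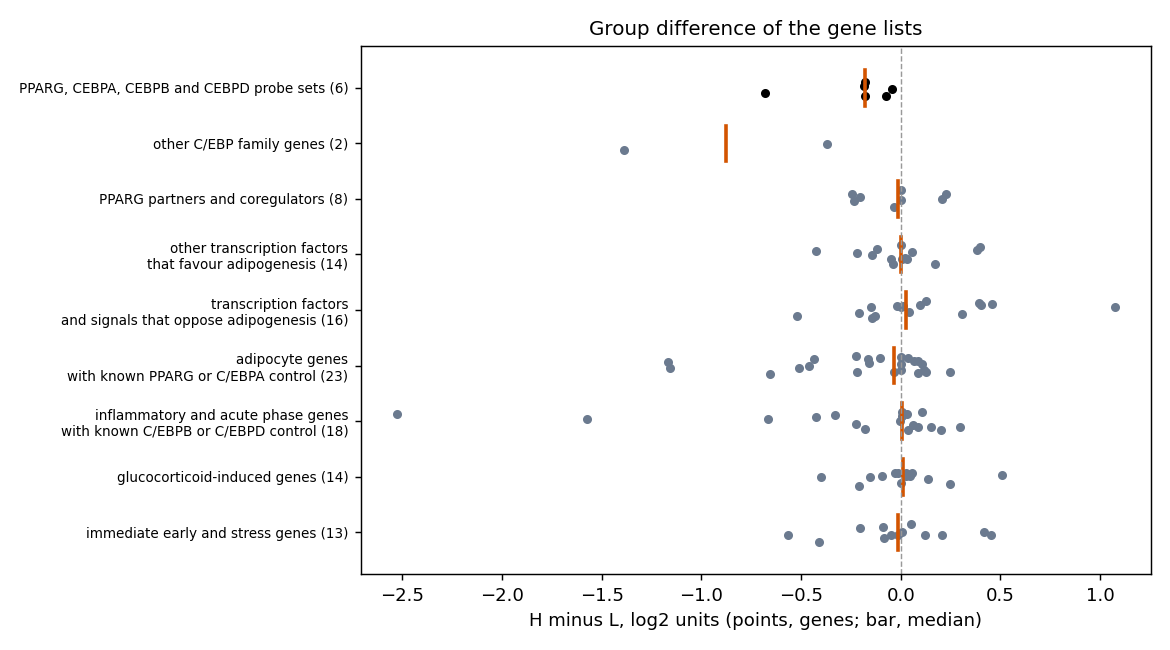
Difference of H minus L in log2 units for the member probe sets (black, 6 points) and for each listed gene above the floor (grey, 1 probe set per gene, number in brackets), with a bar at each median. The members, of which 3 read CEBPD, lie between -0.68 and -0.05 with a median of -0.18. In the 7 lists other than the C/EBP family, single genes lie between -2.53 and 1.07 and the medians between -0.03 and 0.03. These list medians take in genes near the floor or constant on all arrays, which show almost no difference. All 6 member probe sets had distinct values, so the medians of members and lists are not like for like.

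The genes through which C/EBPβ and C/EBPδ are known in inflammation followed no single direction between the groups. Of 26 listed, 21 were measured, CRP, LBP and IL6R at the floor on all arrays, and none passed in either direction. The median difference of the 18 above the floor was 0.0056, which rests on IL1B and TNF, both near the floor. Of the 12 with distinct values, 6 averaged less in H than in L and 6 more. CXCL8, a chemokine of neutrophils, was at 2.56, 2.21 and 2.58 on BC4, BC5 and BC6 of H and at 3.23 and 4.82 on BC2 and BC3 of L, a difference of -1.57 (SE 0.580). S100A9, a calcium-binding protein of neutrophils and monocytes, was at 5.32, 2.89 and 5.32 in H and at 6.93 and 7.15 in L, a difference of -2.53 (SE 0.992). ORM1, an acute phase protein, differed by 0.20 (SE 0.121). None of the 3 passed (adjusted p = 1 by limma). Of 9 listed neutrophil markers 6 were measured, with a summed level of 5.15 to 6.05 in H and 7.25 to 7.40 in L that rests on S100A9 itself. Of the other 5, MMP9 was at the floor on all arrays, S100A8 and LTF were at it or near it, S100A12 was above 2.27 only on BC2 (3.23), and FCN1 was at 3.07, 3.32 and 2.80 in H and 2.82 and 3.07 in L.

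Of the 12 genes of this list with distinct values, BC6 was the highest H animal for 8 and BC3 lay above BC2 for 9, against 32.6% and 53.4% of all probe sets with distinct values. IL6, the interleukin that induces CEBPD in liver cells, was at 6.67, 4.84 and 8.33 on BC4, BC5 and BC6 of H and at 6.18 and 8.37 on BC2 and BC3 of L. PTX3, a pentraxin, was at 6.36, 7.72 and 8.44 in H and at 6.31 and 8.40 in L. C3, of the complement system, was at 6.65, 6.90 and 9.25 in H and at 6.92 and 8.11 in L. Each was higher on BC6 than on BC4 and BC5, and higher on BC3 than on BC2. PTGS2, the inducible cyclooxygenase, was instead lowest on BC6, at 6.18, 6.69 and 5.80 in H and 6.24 and 6.57 in L, and SAA2, a serum amyloid gene, was lowest on BC6 and BC3, at 8.63 on each. These 5 were named after their values were seen.

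The macrophage markers (8 of 12 measured, none at the floor on all arrays) had a summed level of 9.27, 9.03 and 11.36 on BC4, BC5 and BC6 of H and 10.02 and 10.23 on BC2 and BC3 of L. C1QC, a complement subunit made by macrophages, was at 7.96, 7.07 and 10.09 in H and at 8.76 and 8.58 in L. BC6 was the highest H animal for all 6 of these markers with distinct values, and BC3 was above BC2 for 3 of 6. The fibroblast and preadipocyte markers (9 of 12 measured, COL3A1 at the floor) had a summed level of 14.80, 14.90 and 15.68 in H and 15.26 and 15.17 in L, with DCN, the gene of decorin, at 13.98, 14.02 and 14.86 in H and 14.38 and 14.55 in L. The part of these cells in the CEBPD values was not tested.

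The summed levels of endothelial markers were 13.32 to 14.21 in H and 13.09 to 13.64 in L, and those of smooth muscle and pericyte markers 13.25 to 13.95 in H and 12.91 to 13.67 in L. Lymphocyte markers were near the floor, with 4 of 8 measured genes at it on all arrays and a summed level of 5.36 to 5.61 in H and 5.44 to 5.47 in L.

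The immediate early genes, which cells switch on within minutes of a stimulus, were for the most part high in the same animals as CEBPD. All 13 measured of 21 listed had distinct values, and BC3 of L lay above BC2 of L for all 13, where this held for 53.4% of all probe sets with distinct values. BC6 was the highest H animal for 10 of 13, against 32.6% over all. MYC was at 8.78, 8.92 and 10.68 on BC4, BC5 and BC6 of H and at 8.94 and 10.39 on BC2 and BC3 of L, and GADD45B, a stress gene, at 8.30, 7.43 and 9.88 in H and 7.56 and 9.26 in L. This pattern was noticed in the data, and MYC and GADD45B were named after their values were seen.

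Between the groups, no immediate early gene passed in either direction. IER2 differed by 0.42 (SE 0.225), EGR1, a zinc finger factor, by 0.21 (SE 0.232) and BTG2, an antiproliferative gene, by -0.57 (SE 0.777), all at adjusted p = 1 by limma. The other 2 probe sets of EGR1 gave -0.02 and 0.26. The direction of BTG2 turned without L replicate 3 (0.36) and that of EGR1 without L replicate 2 (-0.06). The median difference of the 13 genes was -0.02.

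Of 18 glucocorticoid-induced genes listed, 14 were measured, and none passed in either direction, and their median was 0.01. LPIN1, which makes diacylglycerol, was at 12.24, 12.06 and 11.97 on BC4, BC5 and BC6 of H and at 12.67 and 12.31 on BC2 and BC3 of L. On this, the brighter LPIN1 probe set, the groups did not overlap, as was so for 20.9% of the probe sets with distinct values. The other LPIN1 probe set differed by -0.35, and its groups overlapped. ANGPTL4, an inhibitor of lipoprotein lipase, differed by 0.25 (SE 0.265, -0.10 without L replicate 2) and PER1, a clock gene, by -0.21 (SE 0.275), at adjusted p = 1 by limma. BC3 lay above BC2 for 10 of the 13 with distinct values, and BC6 was the highest H animal for 8.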

How the data were processed

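Per the labels and the methods, biotin-labelled RNA of backfat was hybridised to Affymetrix porcine arrays. The deposited log2 values are 1 per probe set and array, corrected for background and normalized by the authors with GCRMA according to the methods and RMA according to the submitters' processing notes. Which was used is not settled, and the floor follows from that step. The labels give animal numbers, and the study's key puts BC4 to BC6 in H and BC2 and BC3 in L. Replicate numbers are animal numbers.

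Of 24123 probe sets, 124 controls were left out. H minus L was fitted on the other 23999 with limma 3.58.1 in R 4.3.3, with no covariate and Benjamini-Hochberg adjustment over all of them. A gene with several probe sets is given by the one with the highest mean, the members by all. Values within 1e-06 count as equal. No probe sequences were used. For 10069 probe sets the annotation gave 1 symbol, for 198 several and for 13732 none.

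Named were all member probe sets, the 3 genes most like each member, the 3 genes of each list with the smallest p and the brightest marker of each cell type, with exceptions said in the text. The members and lists were chosen with earlier results of these data known. Alternatives were another threshold, filters on dim or floor probe sets, 2 scalings, a trend or robust variance, array weights, means over probe sets and omission of each animal. The limma fit was first tested on simulated data. The number of arrays limits the precision. Each p-value sets the difference of the group means against the spread within the groups of 3 and 2 animals. For that spread limma also draws on the variance of all probe sets tested.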

Additional observations from a re-analysis of the deposited data

How the results depend on the processing

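No paired analysis was possible because H and L have different animal numbers. No probe set passed under any of the 8 alternatives that kept all 5 arrays, and 0 to 286 passed without 1 animal (160 without L replicate 2 and 286 without L replicate 3), none of them a member. The smaller number of arrays applies to all of these, and without an L animal the remaining one is taken to vary as the H animals do. Beyond that the cause was not tested.

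Without 1 animal, the difference ran from -0.21 to 0.05 (0.045 without H replicate 4) for PPARG, -0.98 to -0.15 for CEBPA, -0.32 to -0.04 for CEBPB, and -0.53 to 0.16, -0.70 to 0.28 and -0.31 to 0.22 for the bright, middle and dim CEBPD probe sets. No direction of a member turned under the alternatives with all arrays. The direction turned without 1 animal for ANGPTL4 (-0.10 to 0.60), EGR1 (-0.056 to 0.47) and BTG2 (-1.49 to 0.36). Neutrophil and hepatocyte markers had 0 to 1 genes passing without 1 animal (LTF, S100A12 and FGG, all near the floor), and no other list had any. Over all probe sets of the gene, the difference was -0.34 for CEBPA, with the probe set at the floor in the mean, and -0.14 for CEBPD.

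Ranks change by construction when probe sets at the floor on all arrays are left out. The mean rank from the top was then 7.79% in place of 5.98% for PPARG, 41.1% in place of 31.6% for CEBPA, 1.96% in place of 1.5% for CEBPB, and 31.6% in place of 24.3% and 59.0% in place of 45.3% for the middle and dim CEBPD probe sets.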
